A study of Mus musculus with 9 samples.

Results

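The genes described are 10 interferon stimulated genes of the mouse: Rsad2, Usp18, Ifit1, Ifit2, Ifit3, Isg15, Irf7, Bst2, Gbp2 and Oasl2. They were taken by name, and each gene was read from the probe sets annotated to it alone, with the brightest over all arrays as its main probe set. Of the 10 genes, 9 had such a probe set (12 probe sets in all), out of 18194 genes on the array. The only probe set of Isg15 is annotated to a second gene as well, so no value was assigned to Isg15. In bone marrow sorted for stromal cells from mice with leukemia, the named genes did not move together. Gbp2 and Rsad2 were higher in the medium phase than in wild type, and Usp18 and Ifit2 were lower. Rsad2 was above wild type on every early-phase array, but that difference did not pass the test over all arrays. Early-phase and wild-type arrays did not overlap for 29.7% of all genes tested.

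RNA came from FVB/NJ bone marrow from which cells bearing CD45.1 (found on leukocytes) or Ter119 (found on erythroid cells) had been sorted out. There were 3 arrays of wild-type mice (WT), 3 of leukemic recipients in the early phase (E), when 1 to 5% of marrow cells were leukemic, and 3 in the medium phase (M), when 5 to 50% were. The submitters asked how stromal gene expression changes over the course of the disease, and the labels call the arrays of a group biological replicates, without naming the animals, the leukemia model, their age or whether animals were pooled. P-values therefore measure the spread between these arrays. The design text calls the leukemic mice recipients, so receipt of cells and presence of leukemia cannot be told apart. Latent and late phases were not analysed here.

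Interferons are secreted proteins that bind receptors at the cell surface. Type I interferons act through Ifnar1 and Ifnar2, the kinases Jak1 and Tyk2 and a complex that holds Stat2 and Irf9 and binds the interferon-stimulated response element (ISRE) in promoters. Interferon gamma acts through Ifngr1 and Ifngr2, and its target promoters often hold the gamma-activated site (GAS). The induced genes include antiviral effectors (Rsad2, the Ifit genes, Oasl2, Bst2, Gbp2), the ubiquitin-like modifier Isg15 with its protease Usp18, and Irf7, a factor that amplifies interferon production. In blood-forming marrow, interferons are known to act on stem cells as well as on the stroma around them.

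The promoters of 4 genes are shown, since all carry the ISRE core while their signals took different courses over the groups. Each run is the 160 bases before the start site, read 5′ to 3′ on the gene's strand, from RefSeq on GRCm38.p6, and capitals mark the ISRE core GAAANNGAAA or its reverse complement TTTCNNTTTC. The Rsad2 run lies at chr12:26456453-26456612 on the minus strand, the Gbp2 run at chr3:142620503-142620662 on the plus strand, the Ifit1 run at chr19:34640729-34640888 on the plus strand and the Bst2 run at chr8:71537473-71537632 on the minus strand.
Rsad2: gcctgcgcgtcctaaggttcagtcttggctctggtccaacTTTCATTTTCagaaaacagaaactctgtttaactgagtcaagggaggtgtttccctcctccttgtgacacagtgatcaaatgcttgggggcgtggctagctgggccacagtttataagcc
Gbp2: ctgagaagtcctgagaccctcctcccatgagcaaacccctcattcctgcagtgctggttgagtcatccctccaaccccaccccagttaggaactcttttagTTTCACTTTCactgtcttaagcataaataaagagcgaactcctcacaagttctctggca
Ifit1: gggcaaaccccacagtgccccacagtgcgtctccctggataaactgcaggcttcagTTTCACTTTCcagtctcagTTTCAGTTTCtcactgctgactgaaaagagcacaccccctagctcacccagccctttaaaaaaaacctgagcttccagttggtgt
Bst2: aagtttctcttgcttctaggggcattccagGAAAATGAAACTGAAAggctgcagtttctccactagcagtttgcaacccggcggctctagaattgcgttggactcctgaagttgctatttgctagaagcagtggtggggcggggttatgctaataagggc
The core begins 120 bases before the start site in Rsad2, 59 in Gbp2, 104 and 85 in Ifit1, and 130 and 124 in Bst2, where the 2 matches overlap.

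A promoter window of 300 bases (250 before the start site and 50 after it) was found for 9 of the 10 genes. Usp18 was not found in the table. The ISRE core was present on either strand in 6 of these 9 genes: Rsad2, Ifit1, Ifit3, Isg15, Bst2 and Gbp2. Among all 27025 genes with a window, 3.99% held it. In Isg15 it began 78, 72 and 66 bases before the start site, and in Ifit3 156 and 122 bases before. The GAS core TTCNNNGAA was present in Ifit2 and Bst2, against 9.55% of all genes. Irf7 and Oasl2 held neither set of letters in the window. These matches describe letters in a window, not bound sites.

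Values are log2 MAS5 signals as deposited, in which a difference of 1 is a 2-fold difference. The 9097 genes with a mean at or above the median over genes (log2 6.83) were tested with limma over all 9 arrays, with the Benjamini-Hochberg adjusted p called under 0.05. Rsad2, Usp18, Ifit2, Bst2 and Gbp2 were among them. Ifit1, Ifit3, Irf7 and Oasl2 were not, and their p-values come from the same fit over all 18194 genes. Gbp2 passed the brightness limit through its M arrays alone (WT and E arrays were below it), so it had to differ and its call supports nothing about the other genes.

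The M arrays stood apart from the rest. Of all genes tested, 2.11% were called in E against WT, 68.8% in M against WT and 70.0% in M against E. M replicate 3 differed from the other M arrays by a root mean square of 0.44 each over the genes tested, against 0.21 between those 2, and 0.22 to 0.25 within WT and within E. Poly-A spike-in controls read 1.00 higher (log2) in M than in WT, and array medians were 5.60 to 5.68 in WT, 5.43 to 5.60 in E and 6.24 to 6.28 in M. Centring arrays on the median moved the median difference of M against WT over genes by −0.63, and it dropped by 1.00 with scaling on the spike-ins, so a difference under 1.00 in M can turn with the scaling.

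The sort was checked with marker lists. Of 14 mesenchymal stromal markers tested, 14 were higher in M than in WT, beside 25.3% of all genes tested. Cxcl12, a niche chemokine, read 12.75 to 12.82 in M against 8.53 to 8.75 in WT. Summed linear signals of 12 granulocyte markers were 9926 to 11026 in WT, 12791 to 13960 in E and 93797 to 113314 in M. Those of 14 monocyte and macrophage markers were 2174 to 2241 in WT, 1718 to 1970 in E and 9742 to 19414 in M, and those of 12 pan-leukocyte markers were 6583 to 7243, 5509 to 5715 and 11367 to 19721 in the same order. Ptprc, which encodes CD45, read 9.68 to 9.91 in WT, 9.45 to 9.74 in E and 10.25 to 11.17 in M, so leukocyte RNA was present in a sort gated against CD45.1. In bulk samples fewer cells of a type and less RNA per cell cannot be told apart. The part of these cells in the differences below was not tested.

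**Figure D1:**
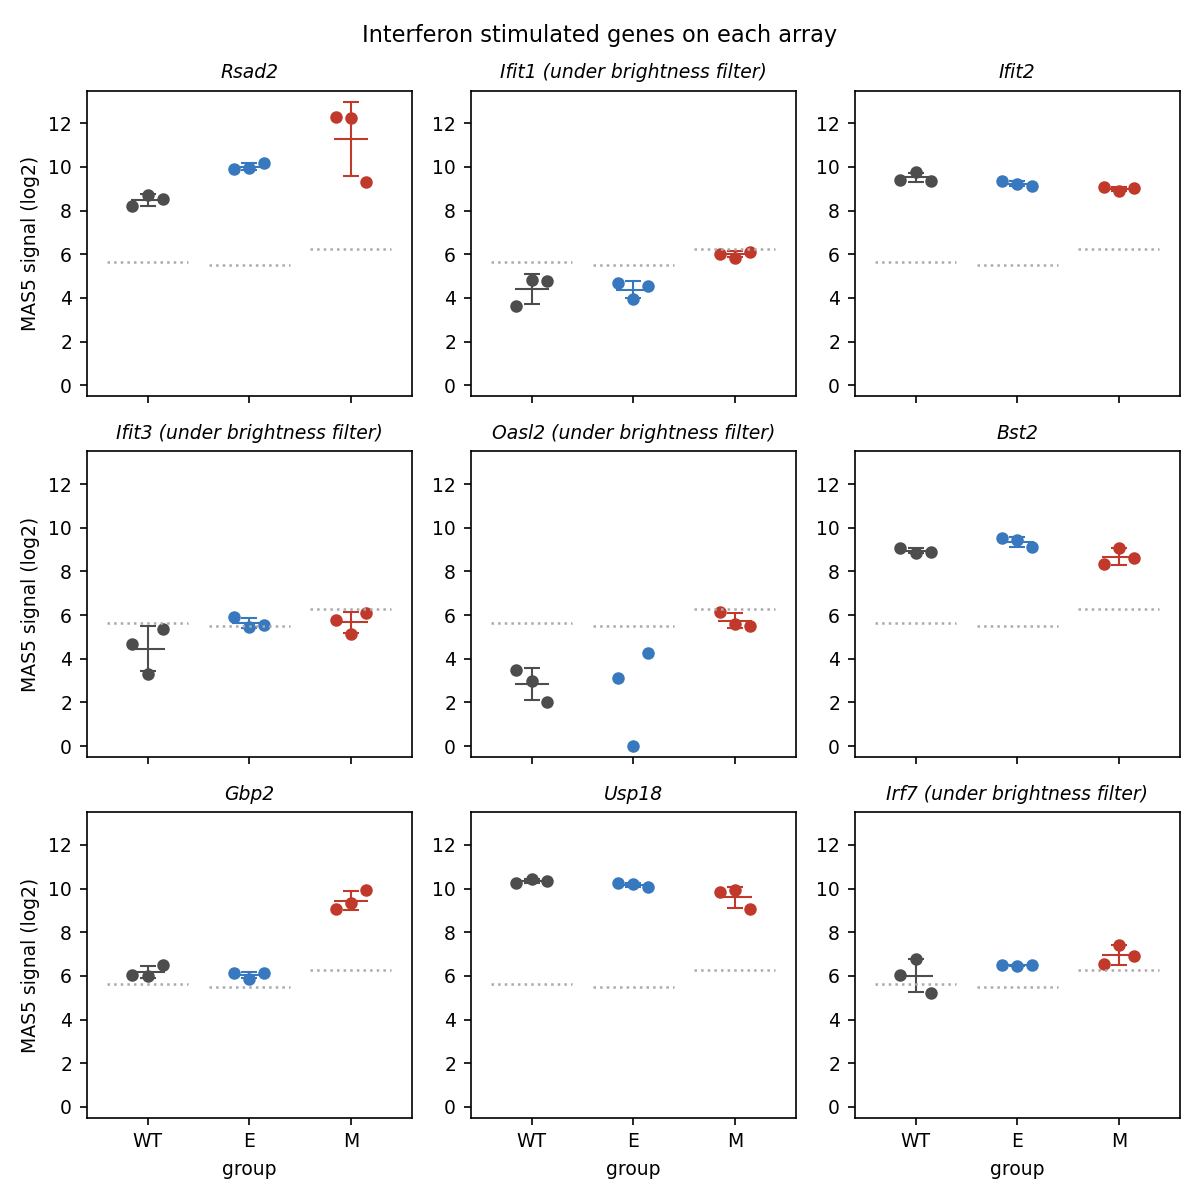
Log2 MAS5 signal (vertical axis) of the main probe set of each of 9 interferon stimulated genes, one panel a gene, with 1 point an array in WT, E and M (3 each), bars for the group mean ± SD (left out where a group holds a value of 0) and dotted lines at the mean of the group's array medians. Gbp2 sits at 9.06 to 9.91 in M, apart from all WT and E arrays, and Rsad2 in M replicate 3 (9.30) sits well below the other M arrays.

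Rsad2 encodes viperin, an enzyme that makes a chain-terminating nucleotide and so limits viral replication. Its signal was 8.19, 8.72 and 8.51 in WT, 9.90, 9.96 and 10.19 in E, and 12.26, 12.23 and 9.30 in M. Every E and M array was above every WT array, but M replicate 3 was below all E arrays. Rsad2 rose in M against WT by 2.79 ± 0.61 (log2 difference ± SE, 6.90-fold, adjusted p = 0.00184 in limma), and by 3.77 without M replicate 3.

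In E against WT the difference was 1.54 ± 0.61 with an adjusted p of 0.279, which missed the threshold in the fit over all arrays. For Rsad2 the SD over WT arrays was 0.27, over E arrays 0.15 and over M arrays 1.70, and the fit uses 1 spread for all groups. Without that array the same difference of 1.54 had an adjusted p of 2.31e-06, and with the 6 WT and E arrays alone 1.77e-05. In M against E the difference was 1.25 (adjusted p = 0.0890), and it was 2.23 without M replicate 3 (adjusted p = 4.30e-09).

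In the other 2 probe sets of Rsad2 all E and M arrays were also above all WT arrays, and M replicate 3 was the lowest M array. One read 6.73, 7.19 and 6.62 in WT, 8.33, 8.56 and 9.16 in E, and 11.05, 10.99 and 7.91 in M. The other read 5.53, 6.57 and 5.79 in WT, 7.28, 7.12 and 7.65 in E, and 9.66, 9.64 and 7.20 in M. Their differences of E from WT were 1.84 and 1.39, and those of M from WT were 3.13 and 2.87, near the 1.54 and 2.79 of the main probe set. Low readings in M replicate 3 were thus common to all 3 probe sets.

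Most erythroid markers were also low on that array, which was the lowest M array for 7 of 9. Their summed linear signal (9 genes) ran from 55397 to 60733 in WT and from 49126 to 51321 in E, and it was 65716, 61884 and 31620 in M replicates 1 to 3. Erythroid RNA was thus present in all groups of a sort gated against Ter119. Alas2, the first enzyme of erythroid heme synthesis, read 9.69 to 9.90 in WT, 7.49 to 7.90 in E, and 11.74, 11.58 and 8.50 in M. Of 8 erythroid markers tested, 0 were called higher and 3 lower in M against WT (25.3% and 43.5% of all genes tested), and Alas2 did not pass (0.79, adjusted p = 0.300). In E against WT 0 of the 8 were called (2.11% of all genes tested), with a median difference of −0.12. By sign 2 of the 8 lay above and 6 below WT in each of these comparisons. Without M replicate 3, 0 of the 8 were called higher and 3 lower in E against WT. More of all genes were called in E under that setting too. The part of erythroid RNA in the Rsad2 signal was not tested.

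Gbp2 encodes a guanylate-binding GTPase that acts on vacuoles of intracellular pathogens and is strongly induced by interferon gamma. Its signal was 6.02, 6.01 and 6.48 in WT, 6.13, 5.86 and 6.13 in E, and 9.06, 9.35 and 9.91 in M. All M arrays lay above all others, and WT and E arrays overlapped. The difference of M from WT was 3.27 ± 0.24 (9.65-fold, adjusted p = 5.90e-07 in limma), that of M from E 3.40 ± 0.24 (10.6-fold, adjusted p = 3.50e-07), and that of E from WT −0.13 (adjusted p = 0.851).

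A second probe set of Gbp2 read 6.61, 5.89 and 6.29 in WT, 6.06, 5.57 and 5.88 in E, and 9.25, 9.22 and 9.52 in M. It gave 3.07 for M against WT and 3.49 for M against E, so both probe sets placed the change between E and M. Gbp2 was as high in M replicate 3 as in the other M arrays, unlike Rsad2. It stayed higher under quantile normalization (2.97), median centring (2.64) and spike-in scaling (2.27).

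The Ifit genes encode tetratricopeptide proteins that bind viral RNA. Ifit2 read 9.42, 9.77 and 9.36 in WT, 9.37, 9.22 and 9.12 in E, and 9.09, 8.88 and 9.02 in M. M arrays were below all WT arrays and all E arrays. Ifit2 fell by 0.52 ± 0.13 in M against WT (adjusted p = 0.00330), and the difference of M from E was −0.24 (adjusted p = 0.109).

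Ifit1, whose product recognises RNA caps that lack the host's methyl mark, read 3.63, 4.84 and 4.79 in WT, 4.66, 3.94 and 4.53 in E, and 6.02, 5.85 and 6.13 in M. All M arrays were above the rest, at signals under the brightness limit. The difference of M from WT was 1.58 ± 0.50 (adjusted p = 0.0213 over all 18194 genes), and that of M from E was 1.62 ± 0.50 (adjusted p = 0.0178). The call against WT was lost without M replicate 1, M replicate 3 or WT replicate 1 (adjusted p = 0.0567, 0.0669 and 0.0782), and under median centring and spike-in scaling the difference was 0.95 and 0.58 with adjusted p of 0.145 and 0.449, and under quantile normalization 1.01 with 0.115. The call against E was lost without E replicate 2 or M replicate 3 (adjusted p = 0.0594 and 0.0574). Under quantile normalization, median centring and spike-in scaling that difference was 0.87, 0.86 and 0.59, with adjusted p of 0.173, 0.186 and 0.446.

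Ifit3, which in humans binds Ifit1 and stabilises it, read 4.69, 3.32 and 5.36 in WT, 5.92, 5.45 and 5.56 in E, and 5.76, 5.14 and 6.09 in M. E arrays were above all WT arrays, and M arrays overlapped both groups. Differences of 1.18 (E against WT, adjusted p = 0.467) and 1.21 (M against WT, adjusted p = 0.0945) did not pass. Within the family, Ifit1 and Ifit2 thus gave opposite signs in M against WT.

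Oasl2 encodes an oligoadenylate synthetase-like protein with ubiquitin-like domains. It read 3.50, 3.00 and 2.03 in WT, 3.11, 0 and 4.25 in E, and 6.13, 5.57 and 5.50 in M. All M arrays were above the rest, and the 0 of E replicate 2 is a linear signal of 1 or less. The difference of M from WT was 2.89 ± 0.98 (adjusted p = 0.0298) and that of M from E 3.28 ± 0.98 (adjusted p = 0.0150), both over all 18194 genes. Leaving out any of 5 arrays (WT replicates 2 and 3 and each M replicate) left the difference from WT at 2.48 to 3.01 with adjusted p of 0.0502 to 0.0979. That call was also lost under quantile normalization (2.33, adjusted p = 0.0851), median centring (2.26, adjusted p = 0.0616), spike-in scaling (1.89, adjusted p = 0.0817) and limma without the trend (adjusted p = 0.0588), and with a pseudocount of 64 the difference was 0.72. The call against E was lost under quantile normalization (2.65, adjusted p = 0.0517) and without M replicate 1 (3.08, adjusted p = 0.0509).

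Bst2 encodes tetherin, which holds budding virus particles at the cell surface. Its signal was 9.07, 8.84 and 8.91 in WT, 9.51, 9.43 and 9.11 in E, and 8.32, 9.08 and 8.62 in M. E arrays lay above all WT and all M arrays, while M and WT overlapped. Bst2 fell by 0.67 ± 0.18 in M against E (adjusted p = 0.00633). Its difference of E from WT was 0.41 (adjusted p = 0.342), and with the 6 WT and E arrays alone that difference had an adjusted p of 0.0488. The difference of M from WT was −0.26 (adjusted p = 0.214), and under quantile normalization, median centring and spike-in scaling it was −0.56, −0.89 and −1.27 with adjusted p of 0.0327, 4.95e-04 and 6.03e-08.

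Usp18 encodes the protease that removes Isg15 from proteins and also binds Ifnar2 to damp type I signalling. It read 10.27, 10.44 and 10.33 in WT, 10.24, 10.20 and 10.07 in E, and 9.82, 9.94 and 9.06 in M. The 3 groups did not overlap, in falling order, with M replicate 3 lowest. Usp18 fell by 0.74 ± 0.19 in M against WT (1.67-fold, adjusted p = 0.00441) and by 0.56 ± 0.19 in M against E (adjusted p = 0.0186), and without M replicate 3 the differences were −0.46 and −0.29 (adjusted p = 2.28e-04 and 0.00700). The difference of E from WT was −0.18 (adjusted p = 0.729).

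Irf7 encodes the factor that drives transcription of interferon alpha genes. It read 6.04, 6.75 and 5.23 in WT, 6.49, 6.46 and 6.51 in E, and 6.53, 7.41 and 6.92 in M. M arrays were above all E arrays by a narrow margin and overlapped WT. Differences were 0.95 ± 0.38 in M against WT (adjusted p = 0.0601), 0.47 in M against E (adjusted p = 0.351) and 0.48 in E against WT (adjusted p = 0.699), and none passed.

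**Figure D2:**
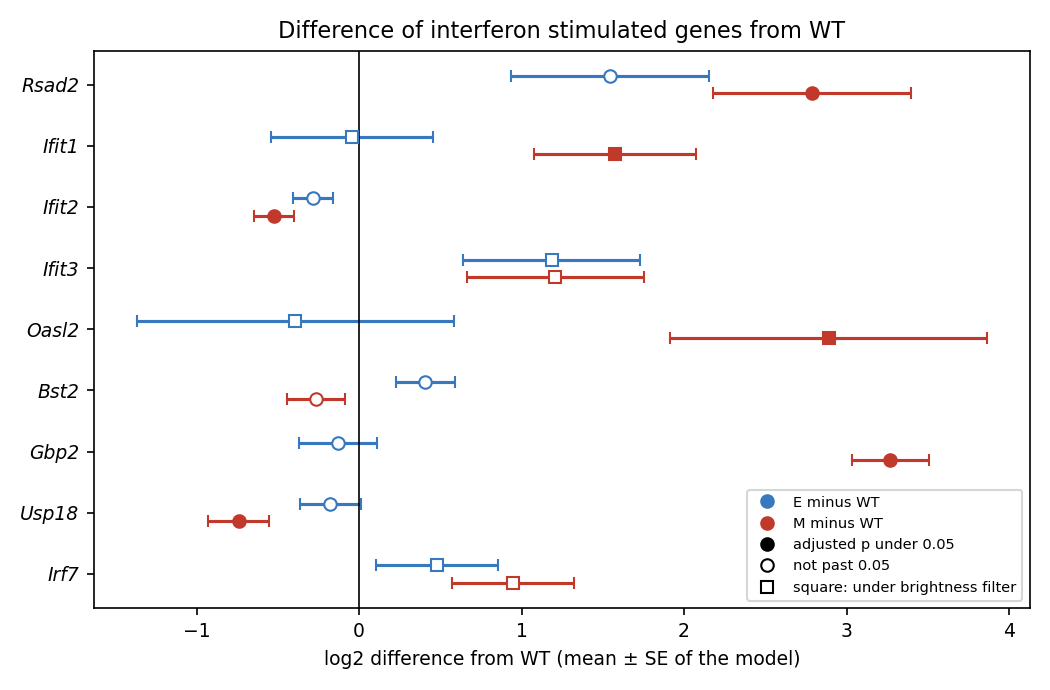
Log2 differences (horizontal axis) of E from WT and of M from WT for the 9 genes, with bars of 1 SE from limma. Filled symbols had an adjusted p under 0.05, and squares mark genes under the brightness limit. Gbp2 at 3.27, Oasl2 at 2.89, Rsad2 at 2.79 and Ifit1 at 1.58 lie right of 0 in M, Usp18 at −0.74 and Ifit2 at −0.52 lie left, and no E difference is filled.

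Read together against the background, 0 of the 5 tested genes were called in E against WT (2.11% of all genes were), with 3 at an unadjusted p under 0.05 (14.1% of all genes were). In M against WT 4 of 5 were called, 2 higher and 2 lower, where 68.8% of all genes were called, 25.3% higher and 43.5% lower. In M against E 3 of 5 were called, 1 higher and 2 lower, where 70.0% of all genes were called, 26.1% higher and 43.9% lower. Arrays did not overlap for 3 of the 5 genes in E against WT, 4 in M against WT and 4 in M against E, and for 29.7%, 72.0% and 73.1% of all genes tested in the same order. Gbp2, which passed the brightness limit through its M arrays alone, is in each of these M counts. It is 1 of the 2 higher calls against WT and the 1 higher call against E, so these counts hold a call set by that limit. The median difference of the 5 genes from WT was −0.13 in E and −0.26 in M, beside 0.01 in E and −0.19 in M over all genes tested. Over the 18194 genes without the brightness limit, 6 of 9 were called in M against WT (43.3% of all genes), 4 higher and 2 lower, 5 of 9 in M against E (45.5% of all genes), 3 higher and 2 lower, and 0 of 9 in E against WT (0.852% of all genes). The shares in M are near the background and are no result about these genes as a group. M against WT and E against WT share the WT arrays.

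Signals of other interferon pathway genes were read from fixed lists. Of 9 interferon genes on the array, 0 were bright enough to test, and none was called in E or M against WT over all 18194 genes, nor had an unadjusted p under 0.05 there. Of the 18194 genes, 0.852% were called in E and 43.3% in M. Ifnb1, the type I interferon of most tissue cells, read 3.70 to 5.53 in WT, 4.50 to 4.81 in E and 5.12 to 5.65 in M. Ifng, made mainly by T and NK cells, read 4.31 to 4.59 in WT, 0 to 3.93 in E and 3.34 to 3.83 in M. Neither gene was above the brightness limit on any array. Ifna1, an interferon alpha gene, differed by 1.59 in M against WT (adjusted p = 0.112), and by 2.37 without M replicate 3 (adjusted p = 0.0154).

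Of 4 interferon receptor genes tested, 3 were higher in M against WT, beside 25.3% of all genes tested. The differences were small: Ifnar1 by 0.55 ± 0.13 (adjusted p = 0.00282), Ifnar2 by 0.41 ± 0.09 (adjusted p = 0.00175) and Il10rb, shared by lambda interferons, by 0.37 (adjusted p = 0.0101). All 3 had negative differences under median centring and spike-in scaling, at −0.45 for Ifnar1 and −0.59 for Ifnar2 with the spike-ins. Ifngr1 differed by 0.12 (adjusted p = 0.166), and Ifngr2, under the brightness limit, by 1.50 ± 0.34 (adjusted p = 0.00303 over all 18194 genes).

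Of 4 kinases and factors downstream tested, 1 was higher and 0 lower in M against WT, beside 25.3% and 43.5% of all genes tested. The higher one was Jak1 (0.48, adjusted p = 3.07e-04, and −0.52 with spike-in scaling). Tyk2 at −0.38 (adjusted p = 0.0784), Irf9 at 0.25 (adjusted p = 0.131) and Jak2 at −0.08 (adjusted p = 0.312) did not pass. Stat2, under the brightness limit, differed by −0.22 (adjusted p = 0.809).

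Among feedback inhibitors, 1 of 5 tested was higher in M and 2 were lower, beside 25.3% and 43.5% of all genes tested. Socs3, which blocks cytokine receptor signalling and is induced strongly by IL-6 family cytokines, averaged 13.00 ± 0.12 in M and 7.94 ± 0.44 in WT (SD, n = 3 each), a rise of 5.06 ± 0.19 (adjusted p = 3.76e-09 in limma). Ptpn6, a phosphatase of blood cells, was lower by a difference of −0.31 (adjusted p = 0.00490), and without M replicate 3, where its other probe set was the brighter one and was read instead, the difference was −0.08 (adjusted p = 0.722). Irf2, a repressor of interferon-induced transcription, differed by −0.27 (adjusted p = 0.0311). In E against WT 0 of 5 were called (2.11% of all genes tested), and 0 had an unadjusted p under 0.05 (14.1% of all genes tested).

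Among the other IRF factors 1 of 6 tested was higher in M and 3 were lower, beside 25.3% and 43.5% of all genes tested. Irf2 and Irf9 stand in this list and in those above, so the lower call of Irf2 is counted in both. Irf1, an activator induced by interferon gamma, averaged 7.70 ± 0.20 in WT, 7.60 ± 0.28 in E and 10.14 ± 0.03 (SD, n = 3 each) in M, and rose by 2.43 ± 0.16 in M against WT (5.40-fold, adjusted p = 2.06e-07 in limma). It remained at 1.43 with spike-in scaling. Irf8, a factor of myeloid and dendritic cells, averaged 9.28 ± 0.11 in WT, 8.22 ± 0.17 in E and 8.22 ± 0.56 in M. It fell in M against WT by 1.07 ± 0.23 (adjusted p = 0.00168) and in E against WT by 1.07 ± 0.23 (adjusted p = 0.0412), where it was the 1 interferon pathway gene called. The call in E was lost under quantile normalization (−0.97, adjusted p = 0.150) and over all 18194 genes (adjusted p = 0.0529). Irf3, which senses signals from viral nucleic acid, differed by −0.57 (adjusted p = 3.89e-04).

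Of 7 interferon-inducible GTPases tested beside Gbp2, 4 were higher and 1 lower in M against WT, with a median of 1.05 over those tested, where the median of all genes was −0.19 and 25.3% of all genes were higher. The split was 3 higher and 3 lower under median centring (median 0.42) and 2 higher and 3 lower with spike-in scaling (median 0.04). Iigp1, which attacks parasite vacuoles, averaged 6.32 ± 0.34 in WT, 6.36 ± 0.43 in E and 9.62 ± 0.25 in M, and was higher by 3.30 ± 0.25 (adjusted p = 8.07e-07 in limma). Like Gbp2, it passed the brightness limit through its M arrays, so its call supports nothing about the family. The count and median above include it and are no result about these GTPases as a group. Gbp3 was higher by 1.30 (adjusted p = 5.24e-04) and Igtp by 1.05 (adjusted p = 0.00354), and both calls were lost with spike-in scaling, at 0.30 and 0.04.

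Irgm2, a regulator of these GTPases, read 6.82, 7.21 and 7.27 in WT, 7.09, 7.28 and 7.49 in E, and 10.39, 10.43 and 8.03 in M. As for Rsad2, M replicate 3 lay well below the other M arrays, and the difference of M from WT was 2.52 ± 0.51 (adjusted p = 0.00109), or 3.31 without that array. Gbp6 and Gbp8, under the brightness limit, were higher by 3.99 and 5.09 (adjusted p = 3.70e-04 and 0.00126 over all 18194 genes). In E against WT 0 of the 7 tested were called (2.11% of all genes tested), and 0 had an unadjusted p under 0.05 (14.1% of all genes tested).

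Of 25 other classical interferon stimulated genes tested, 9 were higher and 7 lower in M against WT, beside 25.3% and 43.5% of all genes tested. In E against WT 0 were called (2.11% of all genes tested) and 3 had an unadjusted p under 0.05 (14.1% of all genes tested). Ifitm3 and Ifitm1, membrane proteins that block virus entry, were higher by 1.59 ± 0.17 and 1.65 ± 0.17 (adjusted p = 9.57e-06 and 9.96e-06), and Tor3a by 2.38 ± 0.25 (adjusted p = 1.10e-05). Tdrd7, an inhibitor of virus-induced autophagy in humans, was higher by 1.60 (adjusted p = 1.96e-05). Among the 7 lower, the smallest adjusted p were those of Eif2ak2 at −0.73, Lgals3bp at −0.44 and Daxx at −0.44 (5.04e-04, 0.00249 and 0.00438). The split was 6 higher and 14 lower under median centring and 4 higher and 17 lower with spike-in scaling, with Ifitm3, Ifitm1, Tor3a and Tdrd7 higher in both. Slfn2 and Ifi27l2a, both under the brightness limit, were higher by 3.22 and 2.91 (adjusted p = 6.97e-06 and 1.43e-05 over all 18194 genes).

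Oas1a, an oligoadenylate synthetase and the 1 gene of the OAS, IFIT and MX families that could be tested beside the 10 named, was higher in M against WT by 1.17 ± 0.19 (adjusted p = 2.00e-04), and 0.17 with spike-in scaling (adjusted p = 0.510). Mx1, an antiviral GTPase that is defective in many inbred mouse strains, differed by 0.59 (adjusted p = 0.460). Of the 4 enzymes that attach Isg15, 0 were higher and 1 lower in M against WT, beside 25.3% and 43.5% of all genes tested. Trim25 was lower (−0.50, adjusted p = 3.55e-04), and Uba7, Ube2l6 and Herc6 differed by −0.06, 0.10 and −0.08 with adjusted p of 0.794, 0.763 and 0.654. With Isg15 itself unread, this arm was seen through its enzymes and Usp18 alone.

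Of 5 nucleic acid sensors and adaptors tested, 1 was higher and 1 lower in M against WT, beside 25.3% and 43.5% of all genes tested. Myd88 was higher (0.29, adjusted p = 0.0268, and −0.71 with spike-in scaling) and Cgas, the sensor of cytosolic DNA, was lower (−0.57, adjusted p = 6.44e-04). Ddx58, which encodes the RNA sensor RIG-I and is itself interferon-induced, lay under the brightness limit and was higher by 2.20 ± 0.37 (adjusted p = 3.23e-04 over all 18194 genes). Of 10 antigen processing genes, 4 were higher and 4 lower in M against WT, beside 25.3% and 43.5% of all genes tested. Tapbp at 0.79, B2m at 0.41 and Nlrc5 at 0.88 were higher (adjusted p = 1.51e-05, 3.27e-05 and 0.00135), Tap2 at −0.51 was lower (adjusted p = 2.71e-04), and with spike-in scaling 0 were higher and 8 lower.

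**Figure D3:**
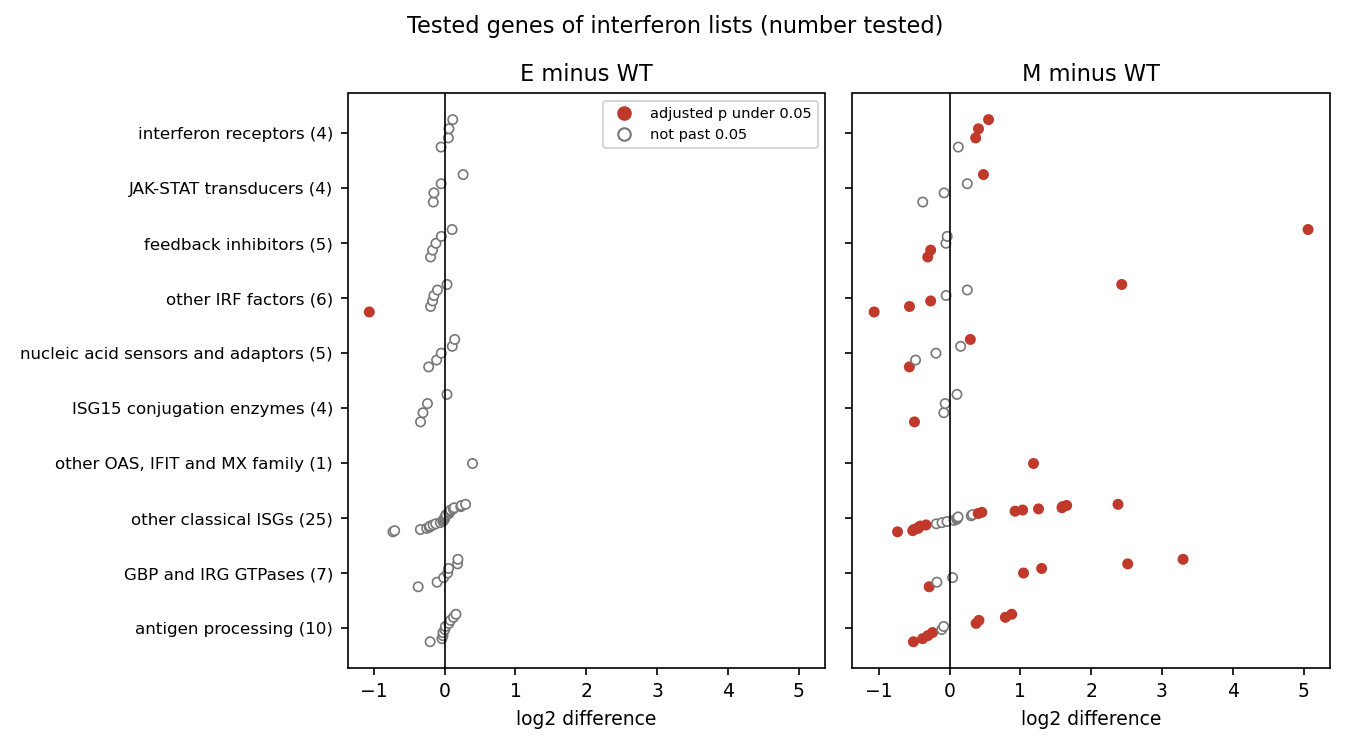
Log2 differences (horizontal axes) of E from WT (left) and of M from WT (right) for each tested gene of the interferon pathway lists, one row a list with its number tested, filled for an adjusted p under 0.05; height within a row only spreads the points. One point is filled in the left panel, Irf8 at −1.07, while on the right Socs3 at 5.06 and Irf1 at 2.43 stand apart in their lists and the GTPase row reaches 3.30 with Iigp1.

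Plasmacytoid dendritic cells are the chief makers of type I interferon. Their 10 markers had a summed linear signal of 6624 to 6681 in WT, 6490 to 7098 in E and 5830 to 7061 in M, with overlapping ranges. Their mean log2 signal was 7.17 to 7.30 in WT, 7.02 to 7.12 in E and 7.59 to 7.78 in M, with no overlap. Array medians were also higher in M, at 6.24 to 6.28 against 5.60 to 5.68 in WT. Of the 4 markers bright enough to test, 1 was higher and 2 lower in M against WT, beside 25.3% and 43.5% of all genes tested. Siglech, which defines them, read 4.92 to 5.60 in WT, 3.48 to 4.54 in E and 5.25 to 5.78 in M. Markers of T and NK cells, which make interferon gamma, summed to 248 to 340 in WT, 182 to 296 in E and 590 to 652 in M over 10 genes. The part of these cells in the M differences was not tested.

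Profiles over the 9 arrays were compared with those of all other tested genes, by the root mean square difference after each gene was centred on its mean. Nearest to Rsad2 were Tmcc2 (0.33), Xpo7 (0.47) and Irgm2 (0.61). Nearest to Gbp2 were Mylk (0.16), Poglut3 (0.16) and Irf2bpl (0.17). Nearest to Usp18 were Birc5 (0.06), Slc14a1 (0.07) and Ampd3 (0.07), to Ifit2 Agtr1a (0.08), Ttf1 (0.10) and Phf2 (0.11), and to Bst2 Cpt2 (0.15), St6galnac4 (0.15) and Tox4 (0.17). The mean profile of the 5 tested genes was nearest to Irs2 (0.09), Sertad3 (0.13) and Flywch1 (0.13). All distances are over 9 arrays that share the same libraries and the same step from E to M, so they carry no test.

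**Figure D4:**
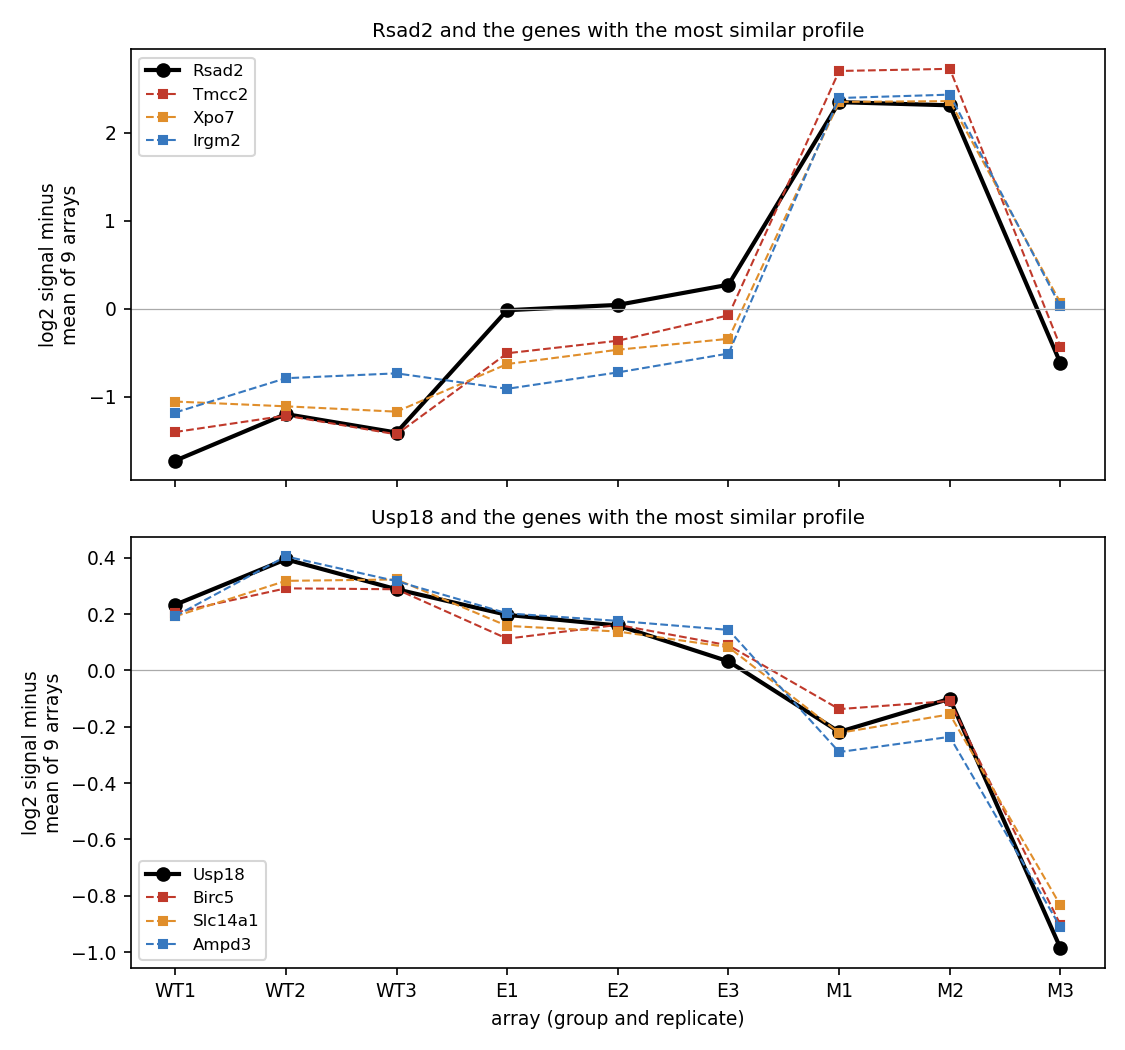
Log2 signal minus its mean over 9 arrays (vertical axes) by array (horizontal axis: WT, E and M, replicates 1 to 3) for Rsad2 and for Usp18, each with the 3 genes nearest in profile; lines join arrays only as a guide. M replicate 3 lies below the other M arrays in all genes of both panels, so the likeness in both rests in part on that array.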

How the data were processed

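Total RNA was extracted with Trizol and labelled with biotin by a 3' in vitro transcription kit, per the labels' protocols. The authors deposited signals made with MAS5, named without a version in the submitters' processing notes, on a log2 scale. The mean linear signal without the extremes was equal in all arrays, and an exact 0 stands for a linear signal of 1 or less.

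Of 45101 probe sets, 34958 had 1 gene symbol in the array's annotation, 932 had several and 9211 were not listed. A gene was read from its one-symbol probe set with the highest mean over 9 arrays. Differences were fitted with limma 3.58.1 in R 4.3.3 (group means over all 9 arrays, intensity trend, Benjamini-Hochberg adjustment over all genes tested), and the fit was tested on simulated data. The 3 arrays a group limit the precision. Most genes beyond the 10 were named by rule. The rule took the up to 4 of each interferon list with the smallest p in either comparison with WT, and 12 core pathway genes. It also took the 3 nearest profiles, and markers of other cells whose level stands beside a result. Some further genes of the lists were named beyond it. Of the genes the rule took only part is printed, and 1 core gene is not analysed here. The 10 genes and the lists were chosen with earlier results of these data known.

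Same-numbered arrays of different groups did not deviate together (correlations of deviations −0.10 to 0.08), so the numbers were not used as pairs. Alternatives tried were quantile normalization, median centring, spike-in scaling, pseudocounts of 1 and 64, no or a stricter brightness limit, the mean of a gene's probe sets, other limma settings, single comparisons alone, and leaving out each array. Motif searches used the RefSeq promoter table on GRCm38.p6, on both strands.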

Additional observations from a re-analysis of the deposited data

How the results depend on the processing

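The number of arrays, 3 a group, and dim signals of Ifit1, Ifit3, Irf7 and Oasl2 limit what could be called, and M replicate 3 decided several values. The cause of the changes below was not tested. Genes called in E against WT numbered 192, against 118 with quantile normalization, 85 of the 4549 brightest genes, 99 with the mean of probe sets, 848 with array weights and 756 with the 6 arrays alone, and leaving out 1 array gave 97 to 840, the highest without M replicate 3. Of the tested interferon stimulated genes, 1 was called in E against WT with spike-in scaling, 1 with array weights, 2 with the 6 arrays alone and 0 to 1 on leaving out 1 array (1 without M replicate 3, which was Rsad2). With the 4549 brightest genes fewer genes were tested, which gave 3466 called genes in M against WT and 3485 in M against E, and 2 of 2 and 1 of 2 interferon stimulated genes. With no brightness limit 5 of 9 were called in M against E. Leaving out 1 array gave 4 to 5 called in M against WT and 2 to 4 in M against E.

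Small differences changed sign. Gbp2 in E against WT was 0.0062 with median centring, and −0.21 to 0.027 on leaving out 1 array. Ifit1 in E against WT was 0.14 with quantile normalization, 0.093 with centring, and −0.44 to 0.18 on leaving out 1 array. Ifit3 in M against E was −0.72 with quantile normalization, −0.74 with centring, −1.01 with spike-in scaling and −0.14 with array weights, and −0.19 to 0.28 on leaving out 1 array. Irf7 in M against E was −0.25, −0.29 and −0.57 under the 3 scalings, and −0.055 in M against WT with the spike-ins. Oasl2 in E against WT was 0.029 with a pseudocount of 64, and −1.29 to 0.83 on leaving out 1 array, the highest without E replicate 2, whose value is 0. None of these differences passed the test.

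Of the calls of single genes, Usp18 in M against E was lost without E replicate 1 or E replicate 2 (adjusted p = 0.0575 and 0.0525), Ifit2 in M against E was gained under all 3 scalings, Ifit3 in M against WT was gained without WT replicate 3 (adjusted p = 0.0334), and Irf7 in M against WT without WT replicate 2 or M replicate 1 (adjusted p = 0.0134 and 0.0417). With the number as a replicate block, 153, 6100 and 6248 genes were called in E against WT, M against WT and M against E, against 192, 6259 and 6368 without it. Interferon stimulated genes called numbered 0, 4 and 3 in the same order, both with and without the block.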
